A study of Mus musculus with 6 samples.

Results

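The genes of respiratory complexes II to V were examined in pancreatic islets, which are clusters of hormone-secreting cells, of pregnant and nonpregnant mice. Members were taken by gene symbol from the authors' deposited table, one line per gene ID. The rule took symbols that begin with Uqcr, Atp5, mt-Co, mt-Atp or mt-Cy, or with Cox and a digit, together with the succinate dehydrogenase genes, Cyc1 and Cycs. It found 64 of 19940 genes, of which 58 are encoded in the nucleus and 6 in mitochondrial DNA. The pregnant group was islets of C57BL6/J mice at gestational day 14.5, and the nonpregnant group was islets of mice whose labels describe them as littermates. Each group had 3 samples, although 5 animals per group are named in the design text. No genotype, age or agent is given beyond the strain, and the labels do not say whether islets of several mice were pooled. The table gives 1 mean read count per group, so no value per library and no spread between libraries can be shown. A call below means an adjusted p under 0.05 in the authors' own test across all genes.

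Complexes II, III and IV pass electrons along the inner mitochondrial membrane to oxygen, and complexes III and IV pump protons as they do so. Cytochrome c carries the electrons between complexes III and IV, and complex V, the ATP synthase, uses the proton gradient to make ATP. In beta cells this ATP closes potassium channels and so couples glucose to insulin secretion. Complex II is encoded wholly in the nucleus, whereas complexes III, IV and V each combine nuclear subunits with subunits made inside the mitochondrion.

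Some nuclear subunit genes of complexes III, IV and V were called higher in pregnant islets, by small amounts: 3 of 9, 6 of 17 and 5 of 15. Most did not pass, and none of the genes in mitochondrial DNA was called. By the authors' deposited table, 15 of 64 members (23.4%) were called higher, against 7.57% of all genes, and 0 were called lower, against 4.15% of all genes. Among the 8796 genes with at least 1000 mean reads, 9.8% were higher and 6.43% lower in that table. At an unadjusted p under 0.05 it has 29 members higher, against 12.4% of all genes, and 0 lower. All 15 calls were nuclear genes with folds between 1.23 and 1.49 in the authors' deposited table. The median log2 ratio was 0.22 over 54 nuclear members with a mean of 10 reads or more and -0.10 over the 6 mitochondrial ones, against -0.01 over 15682 genes in all. Positive log2 ratios stood in 50 of those 54 nuclear members and negative ones in 6 of 6 mitochondrial members. Over all 15682 genes, 7502 were positive and 8158 negative. Mt-Cytb and mt-Atp8, at log2 ratios of -0.018 and -0.017, lay close to the median of all genes. The difference between nuclear and mitochondrial members was not tested, because no library values were used. By summed mean reads the nuclear members took 0.455% of all reads in pregnant and 0.416% in nonpregnant islets, and the mitochondrial members 2.33% in pregnant and 2.65% in nonpregnant islets.

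**Figure D1:**
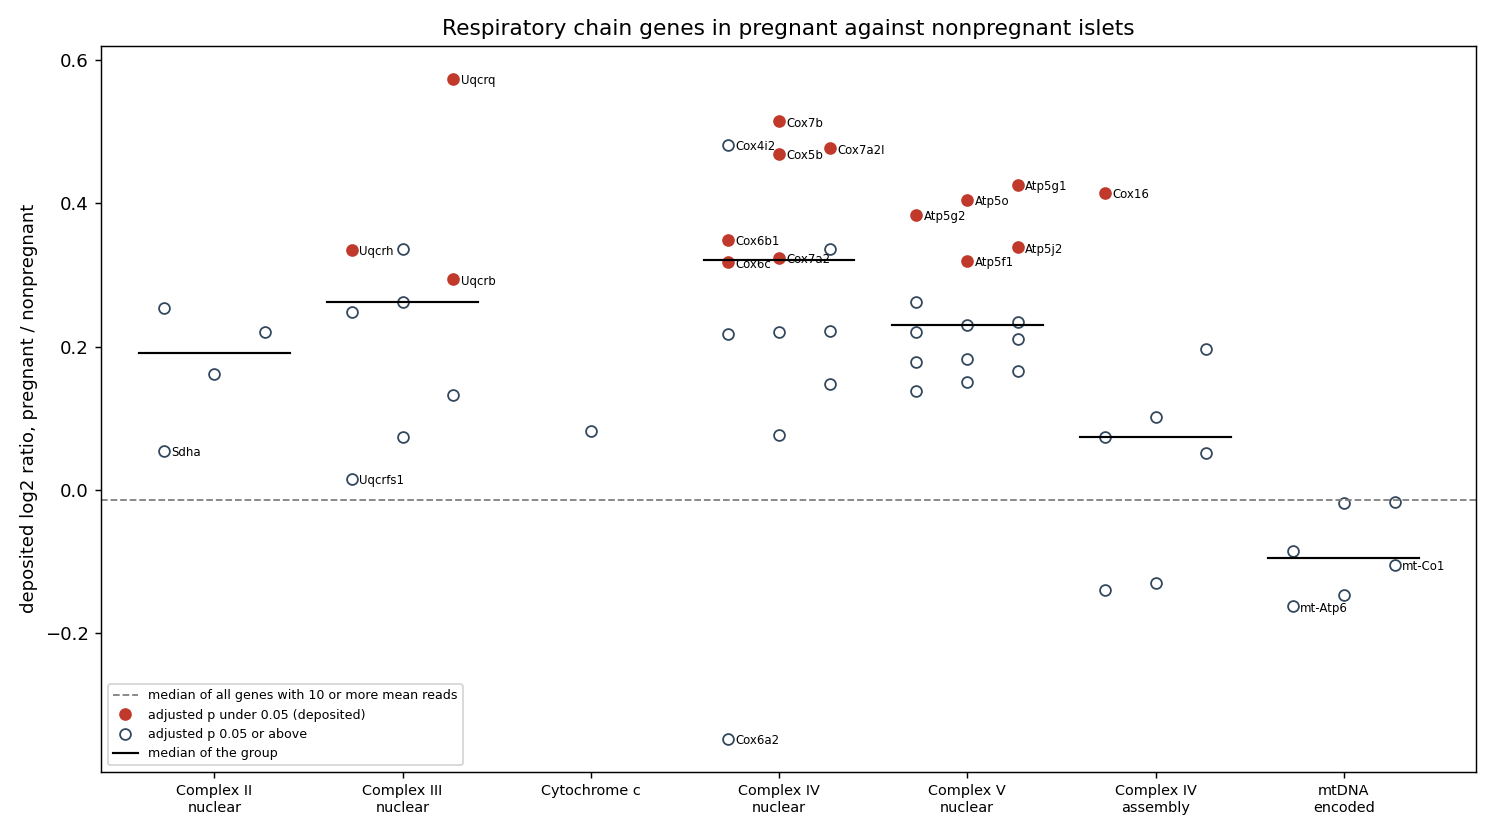
Deposited log2 ratio (pregnant over nonpregnant, vertical axis) of each member with at least 10 mean reads, by complex and genome of origin. Each point is 1 gene, filled where the deposited adjusted p was under 0.05. Black lines are group medians and the dashed line is the median of all genes. The 6 genes of mitochondrial DNA all lie below 0, with mt-Cytb and mt-Atp8 close to the dashed line. The nuclear subunits of complexes II, III and V lie wholly above 0.

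The samples carried the marks of islets. Ins1, Ins2, Iapp, Pdx1, Mafa and Slc2a2, markers of beta cells, together took 21.6% of mean reads in pregnant and 18.4% in nonpregnant islets. Digestive enzyme genes of the surrounding acinar cells moved with pregnancy: 11 of 11 measured markers were called higher in the authors' deposited table. Their summed share of reads was 1.32% in pregnant and 0.0971% in nonpregnant islets, and none stood at 0. Among markers of alpha cells, Gcg, the glucagon gene, had 1337190 reads in pregnant and 1910194 in nonpregnant islets, a ratio of 0.72 without a call (adjusted p = 0.0772 by the authors' deposited table). Irx2 was called lower at 0.79 (adjusted p = 0.0457 by the authors' deposited table). The 2 delta cell markers took 0.357% in pregnant and 0.437% in nonpregnant islets, with Hhex called lower at 0.69 (adjusted p = 0.000142 by the authors' deposited table). The part of all these cells in the results for respiratory genes was not tested. In whole islets, fewer cells of a type and less RNA per cell cannot be told apart.

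The proton channel of ATP synthase turns on a ring of c subunits, and Atp5g1, Atp5g2 and Atp5g3 are 3 genes for that same small protein, differing in the targeting sequence that is removed on import. Their coding sequences are shown because the split of reads among the genes depends on how far they differ. The stretch below is the first 120 of the last 225 coding bases before the stop codon, from GENCODE M21 transcripts on GRCm38, and capitals mark the 29 positions at which the 3 genes do not all share a base.
Atp5g1 coding stretch: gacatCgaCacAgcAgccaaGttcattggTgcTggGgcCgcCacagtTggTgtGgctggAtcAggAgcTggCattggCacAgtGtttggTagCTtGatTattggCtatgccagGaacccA
Atp5g2 coding stretch: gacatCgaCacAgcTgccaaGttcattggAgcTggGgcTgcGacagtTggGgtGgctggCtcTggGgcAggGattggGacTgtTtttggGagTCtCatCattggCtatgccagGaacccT
Atp5g3 coding stretch: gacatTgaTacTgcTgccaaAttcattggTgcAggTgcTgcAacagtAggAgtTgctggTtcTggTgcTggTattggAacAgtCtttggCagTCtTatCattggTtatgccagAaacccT
Over all 225 bases, 57 positions differed. Atp5g1 and Atp5g2 were identical at 84.9% of bases, Atp5g1 and Atp5g3 at 80.0%, and Atp5g2 and Atp5g3 at 78.7%. The longest identical run in any pair was 20 bases.

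The genes for the c subunit also differ in their promoters, which are shown because 2 of the 3 genes were called. The sequences are RefSeq windows of 300 bases of GRCm38.p6 around a gene start, on the gene's own strand (minus for all 3 genes). The windows are chr11:96075582-96075881 for Atp5g1, chr15:102670998-102671297 for Atp5g2 and chr2:73911277-73911576 for Atp5g3. The Atp5g2 window lies wholly inside the gene as annotated by GENCODE M21, whose outermost start is at 102672352. The other windows span the outermost starts of their genes, so the windows are not placed alike. Capitals mark matches to GCATGCG, part of the site of NRF1, a transcription factor of many respiratory genes, or to CCGGAAG, the core of ETS family sites, which GABP binds, on either strand.
Atp5g1 promoter: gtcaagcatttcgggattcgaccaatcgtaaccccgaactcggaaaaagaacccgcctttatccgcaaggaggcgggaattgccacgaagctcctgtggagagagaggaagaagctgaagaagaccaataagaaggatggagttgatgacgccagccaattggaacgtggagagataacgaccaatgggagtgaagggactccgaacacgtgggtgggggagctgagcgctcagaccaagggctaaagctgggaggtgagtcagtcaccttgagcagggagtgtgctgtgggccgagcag
Atp5g2 promoter: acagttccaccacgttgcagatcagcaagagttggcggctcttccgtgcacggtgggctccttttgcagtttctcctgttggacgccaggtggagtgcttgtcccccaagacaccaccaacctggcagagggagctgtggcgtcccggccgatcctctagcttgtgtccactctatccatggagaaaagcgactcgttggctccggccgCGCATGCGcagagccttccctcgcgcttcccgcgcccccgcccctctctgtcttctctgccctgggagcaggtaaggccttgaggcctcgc
Atp5g3 promoter: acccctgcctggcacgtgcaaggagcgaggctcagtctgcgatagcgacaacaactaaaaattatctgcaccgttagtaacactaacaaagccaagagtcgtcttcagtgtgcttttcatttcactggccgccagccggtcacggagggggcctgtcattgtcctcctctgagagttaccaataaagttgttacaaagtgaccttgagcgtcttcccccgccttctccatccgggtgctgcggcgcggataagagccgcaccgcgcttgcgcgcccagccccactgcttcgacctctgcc
Atp5g2 held the first motif, on both strands in overlapping letters, and the windows of Atp5g1 and Atp5g3 held neither of these letter strings. The first motif stood in the windows of 9 of 42 nuclear members found in the RefSeq table (21.4%), against 4.01% of all 27025 genes there. The second stood in 15 of 42 (35.7%), against 9.93% of all genes. Among the 11 called members found in that table, 1 held the first motif (Atp5g2) and 3 held the second (Cox16, Cox6b1 and Uqcrh). These motifs were chosen for display after the shares of several patterns had been seen. Of the other short patterns counted, ACTTCCG, an ETS site with another flank that shares letters with CCGGAAG, stood in 9 of 42 members against 7.2% of all genes. The CCAAT box (CCAAT) stood in 22 of 42 members (52.4%) against 41.1% of all genes, and the GC box (GGGCGG) in 17 of 42 (40.5%) against 38.2%. Longer patterns, a longer form of the NRF1 site among them, were looked at first and are not counted here. Windows without a match therefore lack only the letters given. A match is only a match of letters.

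For complex V, 5 of 15 nuclear subunit genes were called higher and 0 lower in the authors' deposited table, with all 15 log2 ratios above 0 and a median of 0.23. Atp5g1 had a mean of 6636 reads in pregnant and 5064 in nonpregnant islets, a 1.34-fold rise (adjusted p = 0.00118 by the authors' deposited table). Atp5g2 had 9809 reads in pregnant and 7707 in nonpregnant islets, a 1.31-fold rise (adjusted p = 0.00378 by the authors' deposited table). Atp5g3 did not pass: it had 10869 reads in pregnant and 9556 in nonpregnant islets, a ratio of 1.17 (adjusted p = 0.169 by the authors' deposited table). Whether the 3 genes differ in their response was not tested. Per kilobase of exon, Atp5g2 stood at 1.18 times the level of Atp5g3 in pregnant and 1.05 times in nonpregnant islets, and Atp5g1 at 0.271 times in pregnant and 0.235 times in nonpregnant islets. Summed over the 3 genes, mean reads were 27314 in pregnant and 22327 in nonpregnant islets. Of the 50-base words in Atp5g2 transcripts, 38.3% also occur in transcripts of other annotated genes, among them 2 pseudogenes, so its level is uncertain. For Atp5g1 that share was 10.2%.

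The other called genes of complex V belong to its stalk and membrane part. Atp5o, the subunit that ties the stator to the catalytic head, had a mean of 4153 reads in pregnant and 3213 in nonpregnant islets, a 1.32-fold rise (adjusted p = 0.00323 by the authors' deposited table). Atp5f1, subunit b of the stator stalk, had 13541 reads in pregnant and 11116 in nonpregnant islets, a 1.25-fold rise (adjusted p = 0.0203 by the authors' deposited table). Atp5j2, subunit f of the membrane part, had 5273 reads in pregnant and 4275 in nonpregnant islets, a 1.26-fold rise (adjusted p = 0.0173 by the authors' deposited table). Exons of Atp5o and Atp5f1 overlap genes on the opposite strand, so reads could be shared where counting ignored strand. The 5 genes of the catalytic head, Atp5a1, Atp5b, Atp5c1, Atp5d and Atp5e, gave 0 calls, with ratios of 1.1 to 1.2 in the authors' deposited table. Atp5a1 and Atp5b encode the alpha and beta subunits that form the ATP-making sites. Atp5a1 averaged 47259 reads in pregnant and 44014 in nonpregnant islets, and Atp5b 48797 in pregnant and 44171 in nonpregnant islets. These had the most mean reads of the nuclear members, uncorrected for length, and neither passed (adjusted p = 0.486 and 0.295 by the authors' deposited table). The 10 nuclear genes outside the head had a median log2 ratio of 0.28, and those of the head 0.18. This split was not planned beforehand, and the difference was not tested. Atp5a1 and Atp5b also have the longest coding sequences of the nuclear complex V genes, at 1659 and 1587 bases. Ratios moved with coding length, as given below, and the part of length here was not tested.

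In complex III, 3 of 9 nuclear genes were called higher and 0 lower in the authors' deposited table, with a median log2 ratio of 0.26. Uqcrq, a small subunit without a redox centre, showed the largest ratio of all members that were called. It had 3915 reads in pregnant and 2695 in nonpregnant islets, a 1.49-fold rise (adjusted p = 6.06e-06 by the authors' deposited table). Uqcrq (ENSMUSG00000044894) is at 53427922 to 53430831 of chromosome 11 in GRCm38, on the minus strand. None of its 50-base words occurs in transcripts of another annotated gene. Uqcrh, the hinge protein that helps cytochrome c to dock, had 5846 reads in pregnant and 4755 in nonpregnant islets, a 1.26-fold rise (adjusted p = 0.0186 by the authors' deposited table). Its RefSeq promoter window, chr4:116075021-116075320 on the minus strand of GRCm38.p6, was chosen for display because its ETS core, here in capitals, had been seen. The window of Cox7b, the called complex IV gene with the largest ratio, held neither marked motif and is not shown.
Uqcrh promoter: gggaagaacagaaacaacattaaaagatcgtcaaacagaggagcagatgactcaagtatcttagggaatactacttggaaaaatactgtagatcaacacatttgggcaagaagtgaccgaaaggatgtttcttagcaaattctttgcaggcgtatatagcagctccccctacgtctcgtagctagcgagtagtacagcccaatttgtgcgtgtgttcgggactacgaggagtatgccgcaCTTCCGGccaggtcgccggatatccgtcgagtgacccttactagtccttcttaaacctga

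Uqcrb, a small subunit near the ubiquinone site, had 5971 reads in pregnant and 4993 in nonpregnant islets, a 1.23-fold rise (adjusted p = 0.0477 by the authors' deposited table). Uqcrb lay closest to the threshold of all called members, and 25.4% of its 50-base words occur in 4 annotated pseudogenes. Cox6a1 was the nearest member on the other side, at an adjusted p of 0.0674 in the authors' deposited table.

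The subunits of complex III that carry electrons were at ratios near 1. Uqcrfs1, the Rieske iron-sulfur protein, had 5264 reads in pregnant and 5338 in nonpregnant islets, a ratio of 1.01 (adjusted p = 1 by the authors' deposited table). Its deposited ratio lay above 1 although its mean was lower in pregnant islets, as the deposited ratios are not plain ratios of the means. Cyc1, cytochrome c1, had 3635 reads in pregnant and 3542 in nonpregnant islets, a ratio of 1.05 (adjusted p = 0.845 by the authors' deposited table). The core protein genes Uqcrc1 and Uqcrc2 stood at 1.19 and 1.1 and did not pass (adjusted p = 0.111 and 0.533 by the authors' deposited table). Uqcr10 and Uqcr11, small membrane subunits, stood at 1.26 and 1.2 (adjusted p = 0.0793 and 0.105 by the authors' deposited table). Cycs, the mobile carrier cytochrome c, had 3149 reads in pregnant and 3047 in nonpregnant islets, a ratio of 1.06 (adjusted p = 0.811 by the authors' deposited table). A share of 25.9% of the 50-base words of Cycs occurs in other genes, so its level is uncertain.

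Complex II, which also works in the citric acid cycle, gave 0 calls among its 4 genes in the authors' deposited table, with 4 of 4 log2 ratios above 0 and a median of 0.19. Sdha, the flavoprotein that oxidises succinate, had 23122 reads in pregnant and 22818 in nonpregnant islets, a ratio of 1.04 (adjusted p = 0.899 by the authors' deposited table). Sdhb, the iron-sulfur subunit, had 4522 reads in pregnant and 3887 in nonpregnant islets, a ratio of 1.19 (adjusted p = 0.113 by the authors' deposited table). Sdhc and Sdhd, the membrane anchors, stood at 1.17 and 1.12 (adjusted p = 0.176 and 0.393 by the authors' deposited table). With 4 genes, the absence of a call does not set complex II apart from the others, and no test of that difference was made.

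Complex IV gave the most calls, but it also had the most nuclear subunit genes. By the authors' deposited table, 6 of its 17 nuclear subunit genes were called higher and 0 lower. That share was 35.3%, against 33.3% in each of complexes III and V and 7.57% of all genes. The median log2 ratio of complex IV was 0.32 over 14 genes with a mean of 10 reads or more. All 6 calls of complex IV fell among the 11 genes that are not tissue isoforms. Apart from Cox6a2, the tissue isoforms had at most 88 mean reads in either group, so calls at ratios of this size were unlikely for them. Cox7b, a small membrane subunit, had 5923 reads in pregnant and 4249 in nonpregnant islets, a 1.43-fold rise (adjusted p = 5.49e-05 by the authors' deposited table). Cox7b (ENSMUSG00000031231) lies on the plus strand of the X chromosome at 106015700 to 106022450 of GRCm38.

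Cox5b, a subunit on the matrix side that binds zinc, had 4838 reads in pregnant and 3586 in nonpregnant islets, a 1.38-fold rise (adjusted p = 0.00279 by the authors' deposited table). Cox7a2l, a relative of Cox7a2, had 24210 reads in pregnant and 17851 in nonpregnant islets, a 1.39-fold rise (adjusted p = 0.0299 by the authors' deposited table). Per kilobase of exon it stood at 2.87 times Cox7a2 in pregnant and 2.59 times in nonpregnant islets. Cox6b1, which faces the intermembrane space, rose 1.27-fold in the authors' deposited table, with 5892 reads in pregnant and 4744 in nonpregnant islets (adjusted p = 0.0155). The membrane subunits Cox6c and Cox7a2 each rose 1.25-fold (adjusted p = 0.0248 and 0.0314 by the authors' deposited table). Cox4i1, Cox5a, Cox7c and Cox8a did not pass, at 1.11 to 1.17 in the authors' deposited table. Shared 50-base words made up 13.8% of those of Cox7a2l and 11.9% of those of Cox5b.

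Several complex IV subunits come in pairs, with a form for most tissues and a form known from heart and skeletal muscle, lung or testis. Of the 6 tissue forms, Cox6a2 alone came near the level of its general partner, and it did so more closely in nonpregnant islets. Cox6a2, the heart and muscle form of subunit 6a, had 4342 reads in pregnant and 5647 in nonpregnant islets, a ratio of 0.79 (adjusted p = 0.572 by the authors' deposited table). Its partner Cox6a1 had 7097 reads in pregnant and 5761 in nonpregnant islets, a ratio of 1.26 (adjusted p = 0.0674 by the authors' deposited table). Per kilobase of exon, Cox6a2 stood at 0.633 times Cox6a1 in pregnant and 1.01 times in nonpregnant islets. Cox7a1 and Cox8b, further muscle forms, stood at 0.0072 and 0.000373 times Cox7a2 and Cox8a in pregnant islets. In nonpregnant islets the same ratios were 0.0084 and 0.000403. The muscle markers Ckm, Acta1 and Tnnt3 had 6, 73 and 1 mean reads in pregnant islets and 9, 63 and 0 in nonpregnant islets. Cox4i2, the lung form of subunit 4, had 88 reads in pregnant and 64 in nonpregnant islets, a ratio of 1.4, which did not pass (adjusted p = 0.371 by the authors' deposited table). Cox6b2, Cox7b2 and Cox8b had at most 9 mean reads in each group, and with Atp5l-ps1 they were the 4 members under 10 mean reads.

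**Figure D2:**
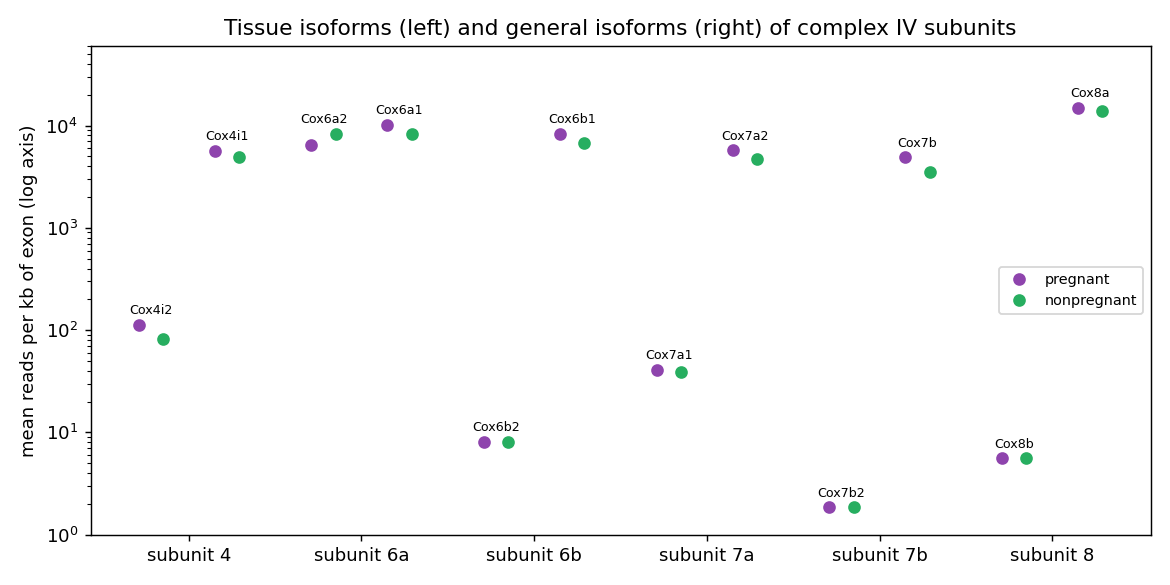
Mean reads per kilobase of exon (log axis) of 6 tissue isoforms of complex IV subunits, left in each pair, beside their general partners, with pregnant and nonpregnant group means as separate points. Cox6a2 lies near Cox6a1, at 6390 against 10100 reads per kilobase in pregnant islets, and the other tissue forms lie far below their partners.

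The deposited p-value of Cox6a2 was large for its ratio and read depth. Its log2 ratio of -0.35 had an unadjusted p of 0.227 in the authors' deposited table. Cox6b1, with a log2 ratio of 0.35 and a like number of reads, had an unadjusted p of 0.0013 in the same authors' deposited table. Among 335 other genes with at least 1000 mean reads and a log2 ratio of the same size within 0.02, 7 had a larger p in the authors' deposited table and the median p was 0.00256. This comparison was devised after the values of Cox6a2 had been seen. Cox6a2 (ENSMUSG00000030785) is at 128205435 to 128206387 of chromosome 7 in GRCm38, on the minus strand, where its exons overlap those of Itgad on the plus strand. Itgad, an integrin gene, had 166 reads in pregnant and 372 in nonpregnant islets, and fell to 0.46 (adjusted p = 1.63e-07 by the authors' deposited table). Whether strand was used to tell reads of these genes apart is not stated.

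Assembly factors of complex IV are the Cox genes numbered 10 and above, and 1 of 7 was called in the authors' deposited table, with a median log2 ratio of 0.07. Cox16, which in human cells helps to bring copper to the enzyme, had 1578 reads in pregnant and 1214 in nonpregnant islets, a 1.33-fold rise (adjusted p = 0.0107 by the authors' deposited table). Of its 50-base words 54.2% also belong to the read-through gene Gm20498, so its value is uncertain. Cox10 and Cox15, which make heme a, Cox11 and Cox17, which deliver copper, and Cox18 and Cox19 did not pass, at ratios of 0.91 to 1.15 in the authors' deposited table. A wider list of 20 genes outside the symbol rule, mostly assembly factors, had 3 called higher (15.0%) and 0 lower in the authors' deposited table. Of all genes, 7.57% were called higher and 4.15% lower. The list's median log2 ratio was 0.08 over 19 genes with a mean of 10 reads or more. The called genes were Ccdc56, a complex IV assembly factor, Atpif1, the inhibitor of ATP synthase running in reverse, and Atpaf1, an assembly factor of the catalytic head. Their folds in the authors' deposited table were 1.37, 1.35 and 1.29 (adjusted p = 0.000365, 0.000934 and 0.0134).

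All 6 members encoded in mitochondrial DNA had log2 ratios below 0 and none passed in the authors' deposited table. They form the catalytic core of complex IV (mt-Co1, mt-Co2 and mt-Co3), the cytochrome b of complex III (mt-Cytb) and the membrane part of complex V (mt-Atp6 and mt-Atp8). Mt-Co1 had 914862 reads in pregnant and 1008189 in nonpregnant islets, a ratio of 0.93 (adjusted p = 0.662 by the authors' deposited table). For mt-Atp6 the means were 82855 reads in pregnant and 95034 in nonpregnant islets, and its ratio of 0.89 was the lowest of the 6 (adjusted p = 0.362 by the authors' deposited table). Mt-Co2 and mt-Co3 stood at 0.9 and 0.94 (adjusted p = 0.436 and 0.766 by the authors' deposited table). Mt-Cytb and mt-Atp8 stood at 0.99 (adjusted p = 0.997 and 1 by the authors' deposited table).

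Per kilobase of exon the mitochondrial genes lay far above the nuclear ones. Their median was 380000 reads per kilobase in pregnant and 404000 in nonpregnant islets, against medians of 3550 to 5630 in pregnant and 3280 to 4680 in nonpregnant islets for the nuclear subunits of complexes II to V without tissue isoforms. Within the mitochondrial set, mt-Co1 was highest, at 592000 reads per kilobase in pregnant and 653000 in nonpregnant islets. Mt-Atp8 was lowest, at 103000 in pregnant and 107000 in nonpregnant islets. Copies of mitochondrial DNA in the nucleus share sequence with these genes. Such annotated pseudogenes hold 100% of the 50-base words of mt-Co2, 99.9% of those of mt-Co3, 99.5% of those of mt-Atp6 and 51.1% of those of mt-Co1. None is shared for mt-Cytb or mt-Atp8. The genes mt-Atp8, mt-Atp6 and mt-Co3 adjoin and overlap at their ends on one strand, so their reads cannot be divided cleanly.

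**Figure D3:**
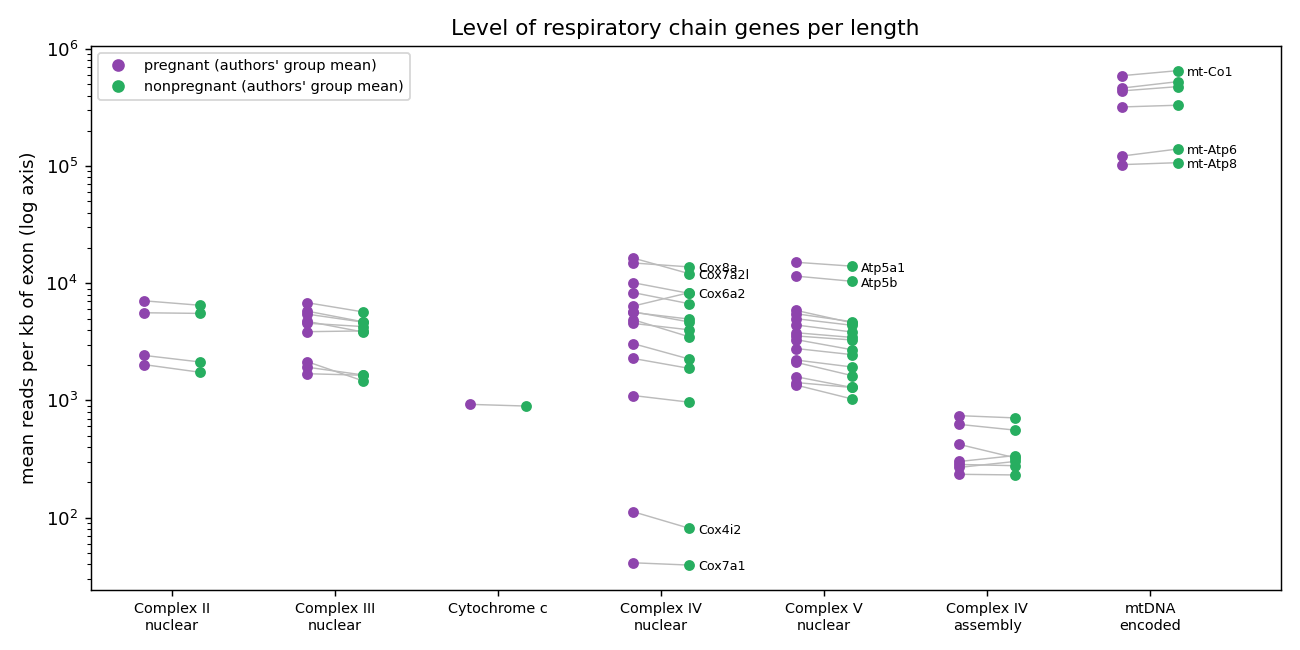
Mean reads per kilobase of exon (log axis) of each member with at least 10 mean reads, with the pregnant group mean left and the nonpregnant group mean right and a line joining the same gene. The 6 mitochondrial genes lie between 103000 and 653000, above every nuclear member, and assembly factors lie below 1000.

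Of 23 measured regulators of mitochondrial biogenesis and mitochondrial RNA, 0 were called higher and 3 lower in the authors' deposited table, against 7.57% higher and 4.15% lower of all genes. At 1000 mean reads or more, 9.8% of all genes were higher and 6.43% lower. The list's median log2 ratio was -0.10. Ppargc1a, a coactivator of respiratory gene transcription, had 97 reads in pregnant and 190 in nonpregnant islets, and fell to 0.53 (adjusted p = 0.00134 by the authors' deposited table). Polg2, the accessory subunit of the mitochondrial DNA polymerase, had 446 reads in pregnant and 817 in nonpregnant islets and fell to 0.56 (adjusted p = 0.0012 by the authors' deposited table). Esrrg, a nuclear receptor that works with such coactivators, fell to 0.78 (adjusted p = 0.0336 by the authors' deposited table). Nrf1, the factor whose motif is shown above, stood at 1.24 and missed the threshold (adjusted p = 0.0517 by the authors' deposited table). Tfam, which packages mitochondrial DNA and activates its transcription, and Gabpa stood at 1 and 1.02 (adjusted p = 1 and 0.98 by the authors' deposited table). Lrpprc, which stabilises mitochondrial mRNA, and Polrmt, the mitochondrial RNA polymerase, stood at 0.84 and 0.82 (adjusted p = 0.109 and 0.092 by the authors' deposited table).

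Complex I, given only for comparison, had 13 of 37 nuclear genes (35.1%) called higher and 0 lower in the authors' deposited table. Their median log2 ratio was 0.21. The 6 measured mitochondrial genes of complex I had a median of -0.22, with 0 called higher and 1 lower. Of all genes, 7.57% were called higher and 4.15% lower.

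Ratios also moved with coding length, and nuclear respiratory subunits are mostly short. Over 8700 genes with at least 1000 mean reads, Spearman's rho between deposited log2 ratio and annotated coding length was -0.307. Over the 47 nuclear members with such a mean it was -0.322; the points share their libraries, and genes are not independent replicates. For coding lengths of up to 300 bases, 7 of 16 nuclear members (43.8%) were called higher, against 23.0% of all genes of that length and depth. Above that and up to 600 bases it was 6 of 17 (35.3%) against 20.4%, and from there up to 1000 bases 2 of 8 (25.0%) against 13.4%. Beyond 1000 and up to 3000 bases 0 of 6 were called, against 7.73%. The members' median log2 ratios in these 4 ranges were 0.29, 0.22, 0.16 and 0.14, against 0.17, 0.14, 0.05 and -0.03 for all genes. The length ranges were chosen after values were seen, and the part of length in the members' ratios was not tested.

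**Figure D4:**
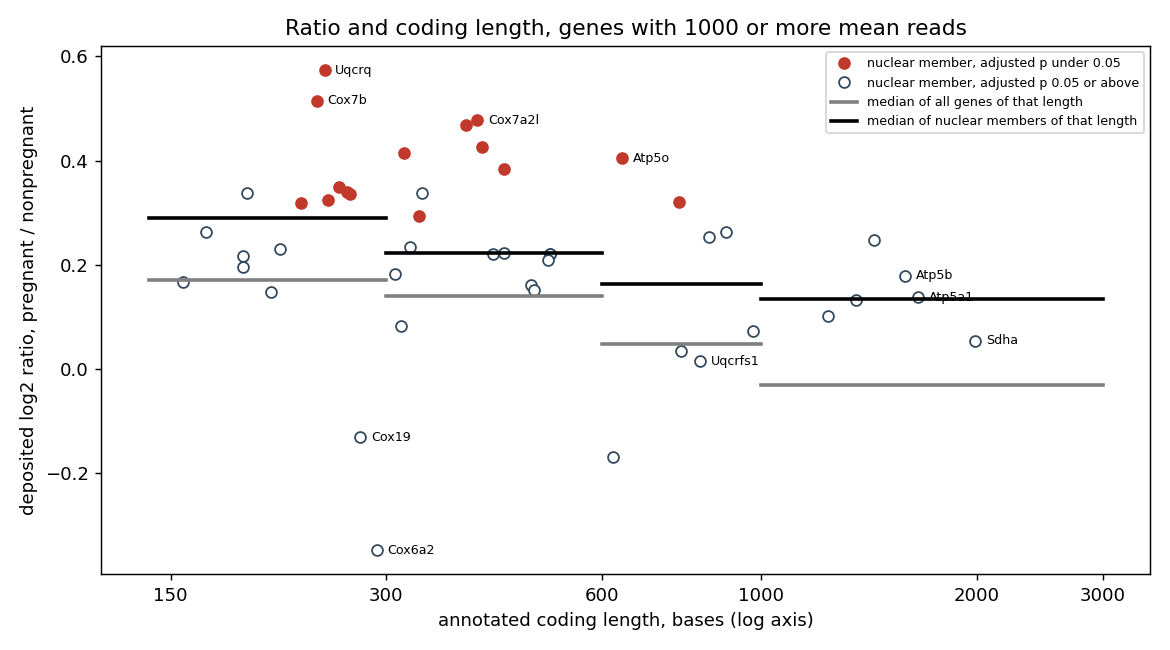
Deposited log2 ratio (vertical axis) against annotated coding length in bases (log axis) of the 47 nuclear members with at least 1000 mean reads. Filled points were called; black lines give the members' median and grey lines the median of all genes of the same depth within each length range, and both fall with length, from 0.29 and 0.17 in the shortest range.

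Of the 5 members that the rule took by name alone, 0 were called in the authors' deposited table. Atp5l-ps1 is a pseudogene with 0 reads in pregnant and 1 in nonpregnant islets. A second line named Cox16 is Gm20498 by its gene ID, with 112 reads in pregnant and 107 in nonpregnant islets. Cox4nb, now named Emc8, is a gene of the endoplasmic reticulum membrane complex that overlaps Cox4i1 head to head. Cox4nb had 2238 reads in pregnant and 2576 in nonpregnant islets, a ratio of 0.89 (adjusted p = 0.422 by the authors' deposited table). Its neighbour Cox4i1 had 8729 reads in pregnant and 7679 in nonpregnant islets, a ratio of 1.16 (adjusted p = 0.176 by the authors' deposited table). Atp5s, a factor associated with ATP synthase, and Atp5sl, now named Dmac2, stood at 1.01 and 1.02 by the authors' deposited table, and neither was called.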

How the data were processed

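Libraries of islet RNA followed a TruSeq transcriptome preparation, per the labels' protocols. Reads were aligned with TopHat2 2.0.12, TopHat and Bowtie and counted with HTSeq 0.5.3p3 on GRCm38, per the submitters' processing notes. Per the file headers the authors deposited a mean read count per group and gene, rounded to whole numbers and treated here as a score rather than a raw count. They also deposited a fold change (a linear ratio of pregnant over nonpregnant), its log2, a p-value and an adjusted p-value. The tool and the spread behind that test, the scaling, and the use of strand are not given in the sources used here. The deposited ratios are not plain ratios of the mean reads. Ratios of the means gave median log2 ratios of 0.185 for nuclear and -0.13 for mitochondrial members, against 0.22 and -0.096 as deposited. Nothing says that samples came from separate animals, so the p-values may measure technical spread. Mean reads summed to 87654449 in the pregnant and 84493872 in the nonpregnant group; single-library depth is unknown.

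Of 19940 genes, 21 stood on several lines and were counted once. GENCODE M21 (GRCm38), which holds 96.6% of the IDs, gave coordinates and lengths; reads per kilobase use the union of a gene's exons. Shared sequence was the share of a gene's distinct 50-base words found in transcripts of other genes. Recomputed Benjamini-Hochberg values, tested on simulated data, differed from the deposited ones by at most 0.00203. Counts per library were not at hand, so no count model was run and list medians carry no test. Members and lists were chosen with earlier results of these data known. Every member could be named, with full values for called genes, redox subunits, the genes with most reads and isoform pairs. The alpha cell list is not reported here in full. Itgad, the promoter motifs, the promoter of Uqcrh and the comparison of the p-value of Cox6a2 were chosen after values were seen. Alternatives were thresholds of 0.1 and 0.01, scaling, pseudocounts and read filters. Calculations used Python 3.11.15, pandas 2.3.3, numpy 2.4.6 and scipy 1.17.1.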

Additional observations from a re-analysis of the deposited data

How the results depend on the processing

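Of 39 alternatives, 36 kept their direction and stayed within 1.5 times the count or 0.1 of the median log2 ratio. Many of these could not have moved, so the count says little about robustness. No member was lower even at an unadjusted p under 0.05. Read filters changed nothing for complexes II, III and V, assembly factors and mitochondrial genes, which all exceeded 100 mean reads. All pseudocounts gave the same medians. The count of members higher fell to 6 at an adjusted p under 0.01 and stood at 18 at a threshold of 0.1, at 29 at an unadjusted p under 0.05 and at 14 for structural subunits alone, against 15. The count of members lower was 0 in all of these. Scaling to total mean reads put the median of all genes at -0.10, against -0.01 as deposited. It gave medians of 0.13 for nuclear and -0.18 for mitochondrial members, and turned that of the complex IV assembly factors to -0.017, against 0.07 as deposited. Leaving out insulin and acinar genes from the totals gave 0.21 and -0.10. Leaving out single libraries was not run, because the table holds group means. No paired analysis was possible because the table holds no value per library. The precision of each ratio rests on the authors' p-value alone.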
